A study of Equus caballus with 4 samples.

Results

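The 9 genes described here encode receptors that thrombin and related proteases cut (*F2R*, *F2RL1*, *F2RL2* and *F2RL3*), the initiator of coagulation (*F3*), the activators of plasminogen (*PLAT* and *PLAU*), the receptor that holds urokinase at the cell surface (*PLAUR*) and a serpin that blocks thrombin and both activators (*SERPINE2*). They were chosen by name, as the non-control probes of the array whose gene name is one of these symbols, out of 16322 named genes. The rule found 21 probes of 8 of the genes. No probe carried the name *F2RL2*, but the probe description column gives it to 2 probes, and these are included, making 23 probes. *F2RL2* and *F2R* are named in the study of these arrays, so their changes are not independent evidence. Its table of selected genes gives a change for *F2RL2* only. Its discussion uses the name *F2R* with the description of *F2RL2*.

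The cells were equine satellite cells (ESC), the muscle stem cells of the horse, taken from the semitendinosus of colts, pre-plated to reduce fibroblasts and grown in culture. They had differentiated for 48 h when HMB (*β*-hydroxy-*β*-methylbutyrate, which the body makes from leucine) was added for 24 h, and were harvested on day 3. Control cells received the same differentiation medium without HMB. The labels give the amount of HMB as 50 µg, whereas the methods give a molar concentration with the same figure. The description of each sample calls the cells GO-treated, and the titles, which say HMB, were followed. RNA of HMB-treated cells (Cy5) and of control cells (Cy3) was hybridised together on each of 4 two-colour arrays of 60-base probes, on 1 slide. The labels call the 4 arrays biological replicates. The dyes were not exchanged, so a bias of a probe towards 1 dye cannot be told apart from an effect of HMB. The sources do not state which colt's cells were on which array. In a culture, fewer cells of a type and less RNA per cell cannot be told apart.

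Thrombin receptors are members of the protease-activated receptor (PAR) family, which are G protein-coupled receptors. A protease cuts their extracellular end and exposes a new end that binds the receptor itself. *F2R* encodes PAR1, the main thrombin receptor of many cells, *F2RL1* PAR2, which is cut by trypsin-like proteases, *F2RL2* PAR3, which thrombin also cuts, and *F2RL3* PAR4. In the plasminogen system, urokinase (*PLAU*) and tissue plasminogen activator (*PLAT*) convert plasminogen to plasmin, which degrades fibrin and matrix around cells, and serpins hold both activators in check. Both systems are known to act during muscle regeneration.

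Receptor probes are shown first, so that the related genes can be told apart by their sequences. Both *F2RL2* probes, which were called, are among them. The brighter *F2R* probe, on which the call of that gene rests, is not printed, and the *F2R* probe shown is the other one, which did not pass. Each is written 5′ to 3′ as the array files give it. Capitals mark the longest run of bases that probes of different receptor genes share, TTTGTCTA, and the last 3 bases of the second *F2RL2* probe, which are a stop codon. The shared run is 8 bases long, in *F2RL1* and *F2RL3*, where it belongs to the last membrane-spanning segment of both receptors. As written it is in 0.142% of all probes of the array, and 0.259% hold it on either strand. A match is a description only.

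F2RL2, chr14:87658314-87658373: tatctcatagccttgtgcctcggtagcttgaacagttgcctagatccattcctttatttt
F2RL2, chr14:87658374-87658433: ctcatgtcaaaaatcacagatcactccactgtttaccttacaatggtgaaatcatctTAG
F2R, chr14:87549761-87549820: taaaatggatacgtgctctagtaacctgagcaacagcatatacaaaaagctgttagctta
F2RL1, chr14:87491771-87491830: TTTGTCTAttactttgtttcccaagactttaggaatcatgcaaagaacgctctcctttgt
F2RL3, chrUn:217462304-217462363: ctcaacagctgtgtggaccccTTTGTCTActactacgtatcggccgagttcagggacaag

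Positions are those the files give on EquCab1. The F2R and F2RL1 probes lie on the minus strand and those of F2RL2 and F2RL3 on the plus strand. The probes of *F2RL1*, *F2R* and *F2RL2* span 166663 bases of chromosome 14. The *F2RL1* probe is 55854 bases from the nearest *F2R* probe, and the *F2R* and *F2RL2* probes are 108494 bases apart. The other named genes with probes within 100000 bases of this span were *CRHBP*, *S100Z* and *IQGAP2*, and none of their probes was well above background on any array in either channel.

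The 2 *F2RL2* probes and 1 of the 2 *F2R* probes were higher in HMB-treated ESC, *PLAUR* was higher on every array with 1 of its 5 probes past the threshold, and no probe of *F3*, *PLAT*, *PLAU* or *SERPINE2* passed. A probe entered the limma test when each of the 4 arrays showed it well above background in the same channel, and it was called at an adjusted *P* of at most 0.05, adjusted over all 27383 tested probes. Of the 21 probes found by gene name, 19 were tested and 2 were called, against 22.8% of all tested probes. With *F2RL2* included, 4 of 21 tested probes were called, all higher in HMB-treated ESC, where 11.2% of all tested probes were called higher. With each gene represented by its brightest tested probe, 2 of 7 genes were called, against 22.9% of the 10800 named genes tested. Both were higher, as were 11.4% of those named genes. The median of the mean log2 ratios of the 7 genes was 0.13, and that of all named genes was 0.02. These counts are small, the shares were not tested against the background, and they say nothing about the 9 genes as a group.

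**Figure D1:**
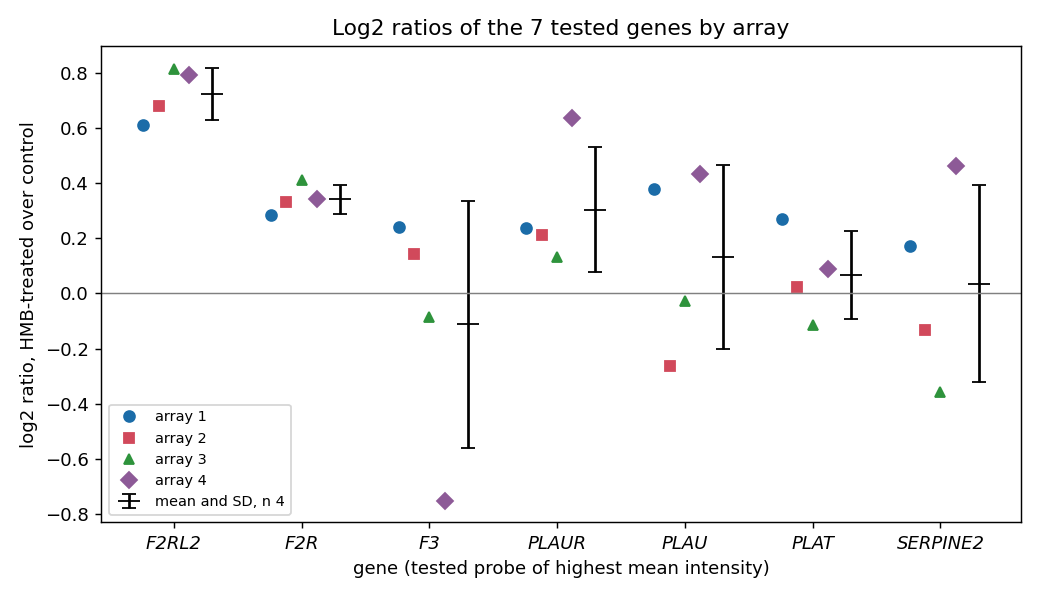
Log2 ratio of HMB-treated over control cells (vertical axis) for the 7 tested genes by their brightest probes, with 1 symbol for each array and the mean with its SD (n 4) in black. *F2RL2* and *F2R* lie above 0 with a narrow spread, while *F3* ranges from 0.24 to -0.75.

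*F2RL2* had the largest mean log2 ratio of the 7 tested genes. The processed intensity of its brighter probe was 480, 528, 522 and 573 in HMB-treated cells on arrays 1 to 4, and 315, 330, 297 and 331 in control cells. The ranges of the 2 channels did not overlap. The log2 ratios were 0.61, 0.68, 0.81 and 0.79, with a mean of 0.72 ± 0.10 (SD, n 4), a 1.65-fold higher level (limma, adjusted *P* 0.0019). The second probe, which ends at the stop codon, gave 0.58, 0.66, 0.73 and 0.87, with a mean of 0.71 ± 0.13 and an adjusted *P* of 0.0027. The difference between the 2 probes was 0.01 ± 0.07, with an exact sign-flip *P* of 0.75, two-sided.

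*F2R* was higher by a smaller amount. Its brighter probe, on chr14:87547684-87547743, had intensities of 3027, 2705, 2764 and 2601 in HMB-treated cells and of 2486, 2152, 2079 and 2054 in control cells. The channels again did not overlap, and *F2R* and *F2RL2* were the 2 of 7 genes of which this held, compared with 16.6% of all named genes tested. The log2 ratios were 0.28, 0.33, 0.41 and 0.34, with a mean of 0.34 ± 0.05 (SD, n 4), or 1.27-fold (adjusted *P* 0.012 in limma). The call was lost without array 2 (adjusted *P* 0.067) and without array 3 (0.066). The other *F2R* probe, 2018 bases away, gave 0.05, 0.37, 0.25 and 0.51, and its mean of 0.30 ± 0.19 did not pass (adjusted *P* 0.054 in limma). It was near 0 on array 1, and the 2 probes differed by 0.04 ± 0.18.

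The log2 ratio of *F2RL2* was above that of *F2R* on each array, by 0.33, 0.35, 0.40 and 0.45. The mean difference was 0.38 ± 0.06 (SD, n 4). An exact sign-flip test gave a two-sided *P* of 0.13, which is the smallest that 4 arrays allow, and this pair was chosen after the values were seen.

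**Figure D2:**
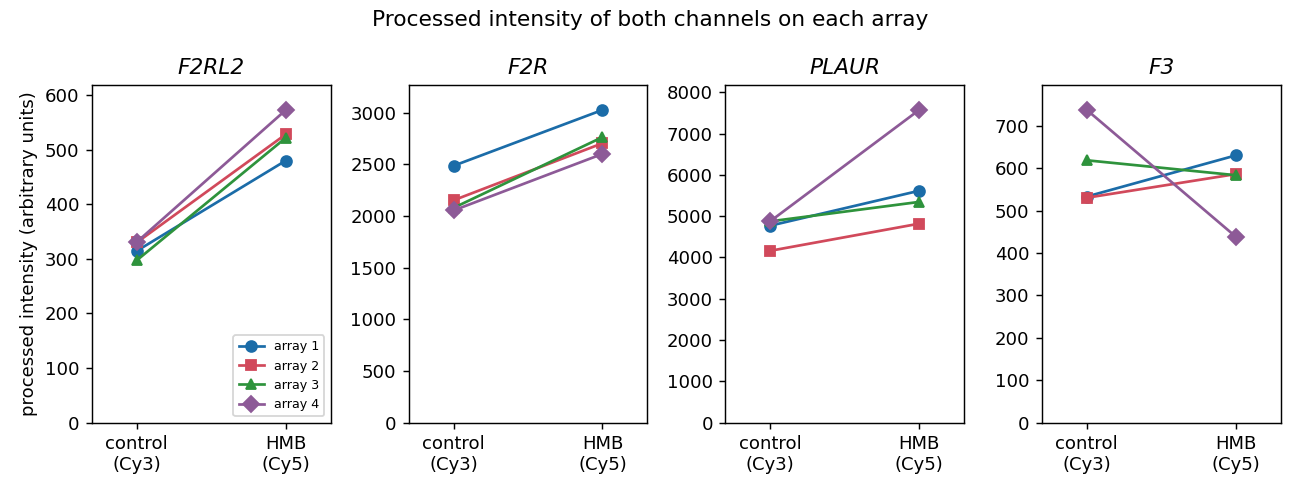
Processed intensity in arbitrary units (vertical axis, from 0, with its own scale for each gene) of the control channel and the HMB channel, with 1 line for each array. The lines of *F2RL2*, *F2R* and *PLAUR* all rise from control to HMB, and those of *F3* cross.

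The other receptors were at or near the background. The *F2RL1* probe was not well above background in either channel on any array. That of *F2RL3* was so on 1 array, array 3, in both channels. Their ratios were not tested, and no fold is given.

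*F3*, which encodes tissue factor, went in opposite directions on different arrays. Its probe, on chr5:43654748-43654807, had log2 ratios of 0.24, 0.14, -0.08 and -0.75. The mean was -0.11 ± 0.45 (SD, n 4; adjusted *P* 0.65 in limma). Array 4 set the sign, and without it the mean was 0.10.

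*PLAUR* was higher on all 4 arrays. Its 5 probes overlap on chr10:14725920-14725983 and share 56 of their 60 bases, so they are repeats of 1 measurement rather than separate ones. The brightest had intensities of 5615, 4818, 5345 and 7573 in HMB-treated cells and of 4769, 4161, 4874 and 4875 in control cells, ranges that overlap. Its log2 ratios were 0.24, 0.21, 0.13 and 0.64, with array 4 well above the rest, and the mean was 0.30 ± 0.23 (SD, n 4; adjusted *P* 0.066 in limma). Without array 4 it was 0.19. The means of the 5 probes lay between 0.30 and 0.36. The lowest adjusted *P* was 0.033, and that probe, at 0.32, 0.26, 0.21 and 0.66, was the 1 called. It was no longer called without array 1 (0.072), array 2 (0.085) or array 3 (0.071).

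*PLAU*, the ligand of that receptor, did not move in 1 direction. Its 5 probes, on chr1:60879499-60879562, also share 56 bases. The brightest gave 0.38, -0.26, -0.03 and 0.43, with a mean of 0.13 ± 0.33 (SD, n 4; adjusted *P* 0.49 in limma). It was higher on arrays 1 and 4 and lower on array 2, and the mean was 0.05 without array 1, 0.26 without array 2 and 0.03 without array 4. The spread was between arrays and not between probes: the median SD of the 5 probes within an array was 0.03, against an SD over arrays of 0.33 for their mean. The log2 ratio of *PLAUR* exceeded that of *PLAU* by 0.17 ± 0.25, which was positive on arrays 2 to 4 and negative on array 1 (exact sign-flip *P* 0.25).

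*PLAT* changed little. The brightest of its 5 probes, on chr27:2722635-2722694, is printed here with the 50 bases that all 5 share in capitals, to show how far the probes repeat each other.

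PLAT, chr27:2722635-2722694: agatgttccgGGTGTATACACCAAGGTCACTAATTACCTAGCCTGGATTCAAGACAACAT

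Its log2 ratios were 0.27, 0.02, -0.11 and 0.09, and the mean was 0.07 ± 0.16 (SD, n 4; adjusted *P* 0.56 in limma). Across the 5 probes the means lay between 0.06 and 0.13 and the adjusted *P* between 0.25 and 0.56. All of them were highest on array 1.

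**Figure D3:**
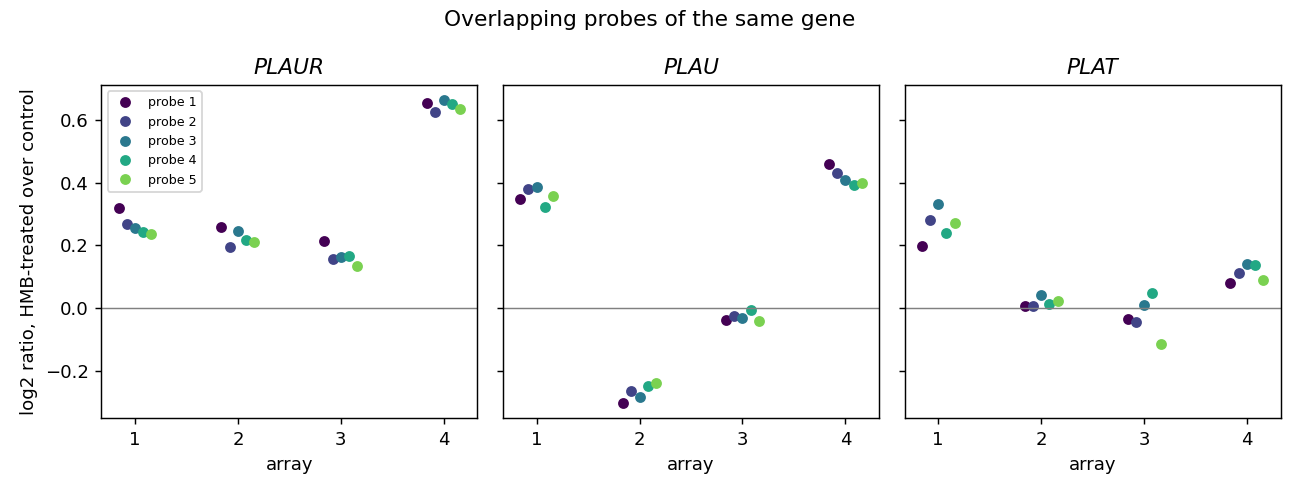
Log2 ratio of HMB-treated over control cells (vertical axis) on each array for the 5 overlapping probes of *PLAUR*, *PLAU* and *PLAT*, with 1 colour for each probe. The 5 points of an array lie close together, with a largest range of 0.16, while the arrays differ.

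*SERPINE2*, which encodes protease nexin-1, had log2 ratios of 0.17, -0.13, -0.36 and 0.46 on its probe on chr6:12794784-12794843. The mean was 0.04 ± 0.36 (SD, n 4; adjusted *P* 0.87 in limma). The sign differed between arrays, and the result depended on the dye normalisation. When lowess was replaced by centring every array on its median, the mean was 0.62 with an adjusted *P* of 0.025. No member spot was saturated.

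The 7 genes did not follow the same order over the arrays. By their brightest probes, all 7 were higher in HMB-treated cells on array 1, 5 on array 2, 3 on array 3 and 6 on array 4. *F2RL2*, *F2R* and *PLAUR* were higher on all 4, as were 25.2% of all named genes tested. The median SD over arrays of all tested probes was 0.16, about that of *PLAT* and below the SD of *PLAUR*, *PLAU*, *F3* and *SERPINE2*.

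Other genes of the same pathways were taken from lists, each gene counted by its brightest tested probe. Counting each gene once, 64 of 121 listed genes were tested, and their median log2 ratio was 0.09. Of these, 13 were called higher and 6 lower, counts that include 3 genes, named below, that entered the test through a single channel. Of all named genes tested, 22.9% were called in either direction and 11.4% were called higher, and the median was 0.02. No list was tested against this background. Of the listed genes, 36 had only probes below the filter and 21 were not matched by symbol. The genes below the filter included *F2*, which encodes thrombin itself, *PLG*, which encodes plasminogen, and *THBD*, which encodes thrombomodulin, while *LRP1* was not matched. Of the called genes, 3 (*PLCB4*, *SERPIND1* and *PCSK6*) passed the filter only through the channel in which they were higher. The first is among the 6 lower and the others are among the 13 higher, and the counts of their lists are also given without them. Their ratios are a description, the size of these ratios is uncertain, and no conclusion is drawn from their calls.

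Among partners in PAR signalling, 3 of 15 tested genes were higher and 2 lower, against 22.9% of named genes called in either direction, and without *PLCB4* the counts were 3 and 1 of 14. Of the 2 probes of *ARHGEF12*, the fainter was called, with means of 0.20 and 0.26. The higher ones were *GNA12*, a G protein subunit, at 0.32 ± 0.18 (adjusted *P* 0.042 in limma), the inhibitory subunit *GNAI3* at 0.30 ± 0.12 and *RGS2*, which speeds the shutdown of Gq, at 0.27 ± 0.10. *GNAI1* fell by 0.49, and by 0.29 with another background correction and normalisation of the raw intensities (normexp and loess). *PLCB4*, a phospholipase C that Gq activates, had a mean log2 ratio of -0.93, and of -0.33 with normexp and loess. Its HMB channel was well above background on 3 of 4 arrays. It was not called without the filter on dim probes, with the channels taken separately or with the methods' t-test. The *GNA12* call was lost without any 1 of the 4 arrays and without lowess (adjusted *P* 0.062), the *GNAI3* call without array 2 or 3, and the *RGS2* call without array 2, 3 or 4. All 3 calls were also lost without the filter on dim probes, with the channels taken separately and with the methods' t-test. The kinase gene *MAPK14* had a mean of 0.06 ± 0.05 on its brightest probe and was not called. The study of these arrays reports *MAPK14* as higher with HMB. Values of any other probe of this gene are not given here.

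In the coagulation list, 2 of 9 tested genes were higher and 1 lower, and without *SERPIND1* 1 of 8 was higher. Of all named genes tested, 22.9% were called in either direction. *SERPIND1*, which encodes the thrombin inhibitor heparin cofactor II, had log2 ratios of 1.79, 1.41, 1.58 and 1.43 and a mean of 1.55 ± 0.18. Its control channel was well above background on 2 of 4 arrays, and its mean with normexp and loess was 0.54. *TFPI2*, an inhibitor of plasmin and other serine proteases, was higher at 0.46, 0.46, 0.32 and 1.33, a call lost without array 1, 2 or 3 and with normexp and loess (adjusted *P* 0.068). *PROS1*, which encodes protein S, a cofactor of activated protein C, fell by 0.42. This call was lost with the channels taken separately and with the methods' t-test.

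In the list of other plasminogen system genes, 5 of 15 tested were higher and 1 lower. Of named genes, 11.4% were called higher and 11.6% lower. The list was drawn broadly and includes *SERPINB6*, *SERPINB8* and *ENO3*, whose role in this system was not examined. *SERPINB2*, an inhibitor of plasminogen activators, was higher by 0.66 ± 0.27 (adjusted *P* 0.011 in limma). This call was lost without the filter on dim probes and with the methods' t-test. The serpins *SERPINB6* and *SERPINB8* were higher by 0.84 ± 0.21 and 0.45 ± 0.04. *PLGRKT*, a membrane receptor for plasminogen, was higher by 0.55 ± 0.40, and *S100A10*, which binds plasminogen together with annexin A2, by 0.30 ± 0.10. Both calls were lost without array 2, 3 or 4. *ANXA2* had a mean of 0.23 ± 0.11 that did not pass (adjusted *P* 0.053 in limma). The result for *ANXA2* depended on the processing. Its mean was 0.53 (limma, adjusted *P* 0.0021) with normexp and loess, which change background correction and normalisation together. Without lowess it was 1.09 (9.4e-04). The mean of 0.23 passed in limma with an intensity trend and robust prior (0.025). Without lowess the *S100A10* mean was 0.62. *ENO3*, the muscle form of the glycolytic enzyme enolase, fell by 0.52, and this call was lost without array 2 or 3.

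Among pericellular proteases and substrates of plasmin or thrombin, 2 of 12 tested genes were higher and none was lower by the brightest probe, and 1 of 11 was higher without *PCSK6*. The shares of named genes called were 11.4% higher and 11.6% lower. For *LTBP1*, 1 of 5 probes was called, with means of -0.36 to -0.29 over the 5. *HGF*, a growth factor that serine proteases activate, was higher at 0.97, 1.15, 1.34 and 2.00, with a mean of 1.36 ± 0.45 (adjusted *P* 0.0043 in limma), and a mean of 0.79 with normexp and loess. *PCSK6*, a proprotein convertase, had a mean of 0.68 ± 0.44, and of 0.26 with normexp and loess. Its control channel was well above background on 3 of 4 arrays. It was called under 4 of 12 alternatives. It was not called without array 1, 3 or 4, with normexp and loess, or without lowess. Nor was it called without the filter on dim probes, with the channels taken separately or with the methods' t-test. Of the genes known to be induced through thrombin receptors, 1 of 14 was higher and 2 were lower by the brightest probe, against 22.9% of named genes called in either direction. Of other probes, 4 of 10 were called for *VEGFA* (means of 0.28 to 0.59) and 1 of 7 for *EDN1* (-0.61 to -0.43). *EGR1*, an immediate early transcription factor, was higher by 0.50 ± 0.31, and this call was lost without array 1, 2 or 3. *ANKRD1*, an ankyrin repeat protein of muscle, fell by 0.99 (by 0.65 without lowess), and *CTGF*, a matricellular growth factor, fell by 0.38, which was lost without array 3.

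**Figure D4:**
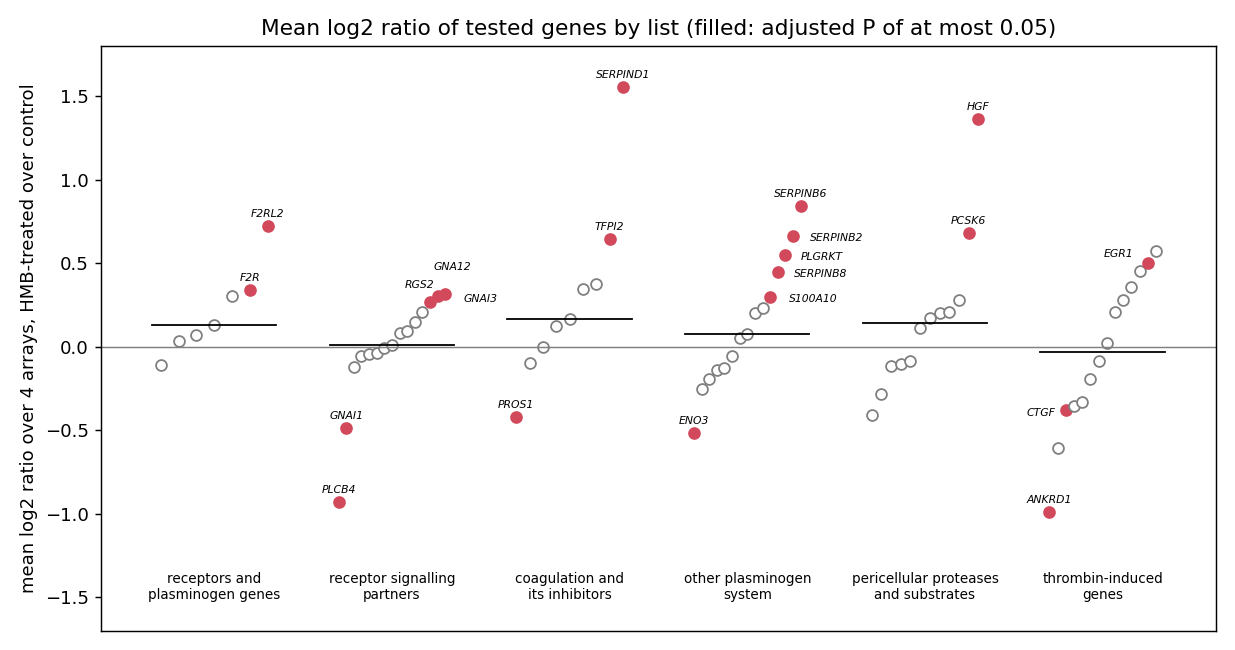
Mean log2 ratio over 4 arrays of HMB-treated over control cells (vertical axis) for each tested gene, by list. Filled points with names have an adjusted *P* of at most 0.05, and the line is the median of the list. The medians lie between -0.03 and 0.17.

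Markers of the cells in culture moved as well. Of 6 tested markers of satellite cells and myoblasts, 5 were lower in HMB-treated cells by the brightest probe (*MYF5*, *MYOD1*, *MYOG*, *DES* and *NCAM1*), where 11.6% of named genes were called lower. For *MYOD1* 1 of 2 probes was called, with means of -0.46 and -0.20. The study reports *MYF5* as lower, but states that no differentiation marker met its criteria for significance. How far the marker calls depend on the processing is not given here. The summed intensity of the 5 lower markers was 16244 to 24928 in HMB-treated and 33709 to 38075 in control cells. Most of this sum came from *DES* in both channels. With *CAV1*, which had a mean log2 ratio of 0.42 ± 0.46 and was not called, the sums over all 6 were 30989 to 39077 and 45553 to 48751. Of 6 fibroblast markers, *PDGFRA* (1.53 ± 0.47) and *FAP* (0.42 ± 0.18) were higher and none was lower by the brightest probe, where 11.4% of named genes were called higher. The summed intensities, in which *COL1A2* and *DCN* were the brightest, were 195666 to 263284 in HMB-treated and 204142 to 283148 in control cells. Of the 9 probes of *COL1A2*, 2 were called, with means of -0.59 to -0.20 over the 9, and 1 of 2 probes of *DCN* was called, with means of 0.15 and 0.39. No endothelial marker passed the filter. Neither of the 2 leukocyte markers tested (4829 to 6342 and 4837 to 5634) nor any of the 3 platelet markers (495 to 960 and 566 to 826) was called. *PAX7* was not matched by symbol, and *PAX3* was below the filter. The part of these markers in the values above was not tested.

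**Figure D5:**
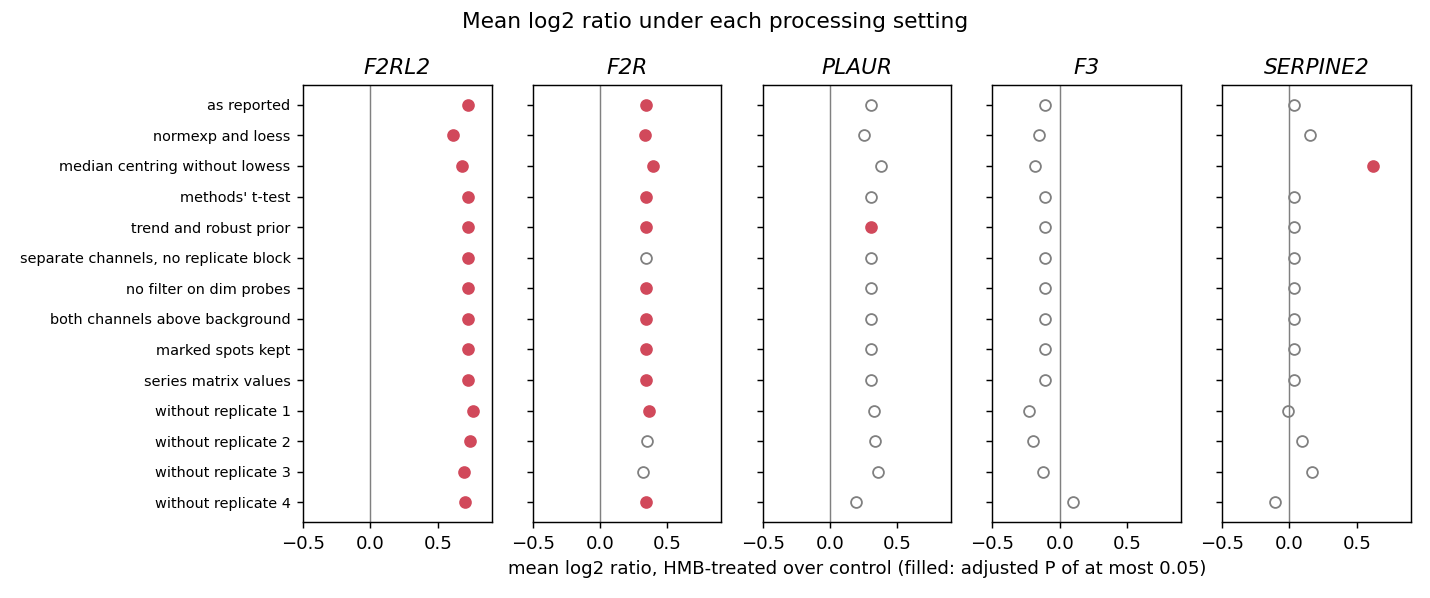
Mean log2 ratio of HMB-treated over control cells (horizontal axis) of 5 genes, by their brightest probes, under each processing setting (vertical axis), filled where the adjusted *P* is at most 0.05. *F2RL2* is filled in every row, *F2R* in all but 3, and *SERPINE2* moves from 0.04 to 0.62 without lowess.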

How the data were processed

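The 4 arrays compared HMB-treated (Cy5) with control (Cy3) ESC. The authors deposited Feature Extraction output (version 10.10.1.1 in the file headers, another than the methods name). The deposited intensity values are raw spot and background signals, and processed signals after the software's background subtraction, detrending and dye correction. The log10 ratios (Cy5 over Cy3) were deposited after linear and lowess normalisation, and the deposited summary table holds the same values (largest difference 0). Marks of 0 or 1 were set by the software for saturated, outlying and above-background spots.

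The factor 3.32 turned ratios into log2. Control and marked spots were left out, the spots of a probe were averaged, and tests were made on probes with the same channel well above background throughout and values on 3 or more arrays (27383 of 43603 probes). The mean was tested against 0 with limma 3.58.1 in R 4.3.3, two-sided, and *P* was adjusted after Benjamini and Hochberg over the tested probes. Single differences used an exact sign-flip test. The number of arrays limits the precision. The procedure was run on simulated data with far fewer changed probes than were called here, so the outcome is not used as support. A bound on the number of probes recovered failed, and other checks replaced it after that was seen.

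Symbols came from the gene name column for 27511 probes, from accessions of the RefSeq gene table (another horse assembly) for 898 and from the description column for 6. Members, lists and rules were chosen with earlier results of these data known. Named genes are the 9 members, every called gene of a list up to 6, and *THBD*, *PLG*, *F2*, *MAPK14*, *LRP1*, *ANXA2* and *S100A10*. Genes of the lists that were not called by their brightest probe (*ARHGEF12*, *LTBP1*, *VEGFA*, *EDN1*, *COL1A2*, *DCN* and *CAV1*) were named after their values were seen. The values of 1 other gene are not reported here. The alternatives were normexp (offset 50) with loess, median centring in place of lowess, the methods' t-test (from the workbook of the supplement), limma with an intensity trend and robust prior, separate channels, other filters, marked spots kept, the deposited summary values, a minimum of 1.3-fold and each array left out. Added after seeing the data were the mean of a gene's probes, and members by gene name only. Tables and figures used Python 3.11.15, pandas 2.3.3, numpy 2.4.6 and matplotlib 3.10.9.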

Additional observations from a re-analysis of the deposited data

Results flagged for a closer look

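Among 40 probes examined, 2 had 1 array that stood apart from the other 3 by the Dixon criterion for 4 values, which chance meets in about 1 of 20 groups. On array 4, a *PLAUR* probe had a log2 ratio of 0.65, with 0.17 to 0.24 on the other arrays. On the same array the *TFPI2* probe had 1.33, with 0.32 to 0.46 on the others. Without array 4 the *TFPI2* mean was 0.41 (adjusted *P* 0.018 in limma), while it was 0.64 with all arrays.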

How the results depend on the processing

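By its brightest probe *F2RL2* was called under all 13 alternatives with a test, at 0.62 to 0.76. Its other probe was called under 12, and not with the methods' t-test (adjusted *P* 0.051). *F2R* was called under 10 by its brightest probe, with adjusted *P* from 0.0058 to 0.067. The channels taken separately, with no replicate block for the array, gave *F2R* an adjusted *P* of 0.055. *PLAUR* was called with a trend and robust prior (0.042). Leaving out array 4 turned the sign of *F3* and *SERPINE2*, and leaving out array 1 that of *PLAT* and *SERPINE2*. With an array left out the means were -0.23 to 0.10 for *F3*, -3.0e-04 to 0.13 for *PLAT* and -0.11 to 0.17 for *SERPINE2*, and none was called. The cause was not tested.

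All called probes were 6257, and 768 with the methods' t-test, 2226 with separate channels and no replicate block, 3690 with no filter on dim probes, 3863 with a minimum of 1.3-fold and 2569 to 4981 with an array left out. All called probes were 7143 without lowess and 6760 with the trend and robust prior. Called member probes were 4, and 7 without lowess, 2 with the methods' t-test, 9 with the trend and robust prior, 2 with separate channels and no replicate block, 2 with the minimum fold, 2 by gene name only and 2 to 4 with an array left out. The 9 include every *PLAUR* probe and the 7 include some of them, and these probes repeat a single measurement. Called genes of the pathway lists were 19, and 10 to 16 with an array left out. With the methods' t-test they were 2 (*SERPIND1* and *SERPINB8*). With separate channels and no replicate block they were 7 (*GNAI1*, *SERPIND1*, *SERPINB2*, *SERPINB6*, *SERPINB8*, *HGF* and *ANKRD1*). With no filter on dim probes they were 8 (*GNAI1*, *PROS1*, *SERPIND1*, *SERPINB6*, *SERPINB8*, *S100A10*, *HGF* and *CTGF*). Other counts were within 1.5 times. Signal over background limits *F2RL1* and *F2RL3*.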
